A study of Danio rerio with 15 samples.

Results

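Transcripts of the translation initiation and elongation factors were followed through early zebrafish development and in embryos that lack Dicer. The members were all probe sets whose single platform gene symbol starts with eif or eef followed by a digit. This rule took 80 of the 15502 non-control probe sets and covered 64 of the 8793 genes with a single symbol, 51 for initiation factors and 13 for elongation factors. It used no measured value. RNA was measured on 15 Affymetrix Zebrafish arrays, each from 20 whole embryos kept at 28 °C. The groups were MZdicer embryos injected with miR-430 at the one-cell stage (n = 3), uninjected MZdicer embryos at 9 hours after fertilisation (n = 3), wild-type embryos injected with miR-430 at the one-cell stage (n = 3), uninjected wild-type embryos at 9 hours (n = 3), a single array of wild-type embryos at 50% epiboly, and wild-type embryos of the 16-cell stage (n = 2). MZdicer embryos lack both the maternal and the zygotic supply of Dicer, the enzyme that cuts microRNA precursors, and miR-430 is a microRNA family that zebrafish express from the onset of zygotic transcription. The labels give the strain TLAB for the 16-cell and 50% epiboly embryos, no age for the injected embryos, and no mock-injected group. In every comparison of injected with uninjected embryos, miR-430, the act of injection and a possible difference in age therefore cannot be told apart. The series title names the clearance of maternal mRNAs by miR-430 as the question.

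Protein synthesis begins when eIF2 brings the initiator tRNA to the small ribosomal subunit, while eIF1A and the large scaffold eIF3 prepare that subunit for scanning. The eIF4 factors recruit the mRNA: eIF4E binds the cap, eIF4G joins cap, tail and ribosome, and the helicase eIF4A opens the leader, while 4E-binding proteins hold eIF4E back. During elongation eEF1A delivers tRNAs, eEF1B recharges eEF1A with GTP, and eEF2 moves the ribosome along. A fish egg carries maternal mRNAs for this machinery, and the embryo later replaces them from its own genome.

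Summed marker levels set the 16-cell arrays apart from all later ones, and the germ-line sum also set 50% epiboly apart. The summed level of 5 maternal germ-line transcripts was 34670 to 34830 on the 16-cell arrays, 1572 at 50% epiboly and 487.3 to 764.9 in the other groups. Of these zar1 fell least, from 310.5 and 301.3 at the 16-cell stage to 205.6, 234.1 and 216.7 in wild type at 9 hours. For 6 measured gastrula genes the sum was 141.6 to 152.6 at the 16-cell stage and 32760 to 35950 on all other arrays. The 5 measured markers of later cell types summed to 686.8 to 1104 in all groups. The targeted gene dicer1 had a level of 250.5 to 291 in injected MZdicer, 290.4 to 314.3 in MZdicer, 551.1 to 579.3 in injected wild type and 443.8 to 499.8 in wild type; which stretch of the transcript its probe set covers was not used here. Pearson correlations between replicates over all probe sets were 0.983 to 0.996. Those of injected MZdicer replicate 1 with the others of its group were the lowest of all (0.983 and 0.987). The labels do not say whether replicates were separate clutches, so the spread that the p-values measure may be technical.

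Levels below are quantile-normalised intensities, which are set beside each other only for 1 probe set at a time, since brightness differs between probe sets. A log2 change is a difference of mean log2(intensity + 16), given ± its standard error, and it understates the change of dim transcripts. A gene was called where limma's adjusted p over all 15502 probe sets was under 0.05, and was represented by its brightest probe set. Leaving out injected MZdicer replicate 1 gave 49 called members for MZdicer against wild type (44 with it), 37 for injected MZdicer against MZdicer (29), 19 for injected against uninjected wild type (13), 34 for injected MZdicer against wild type (32), 29 for the interaction (28) and 69 by stage (68). The share of all probe sets called is not given here for this or any other alternative fit. Counts from such fits are therefore not read as particular to the members. Labelling was primed from poly(A) tails, so tail length and RNA amount both enter the signal. In whole embryos, fewer cells of a type and less RNA per cell cannot be told apart.

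Between the 16-cell stage and 9 hours of wild-type development most of the factor genes changed. Most genes of the initiation scaffold eIF3 were higher, and the eIF4 genes went both ways. Of the 80 probe sets 44 were called higher and 24 lower at 9 hours, or 85% together, against 75.7% of all probe sets. Those called higher were 55% of the members and 35.6% of all probe sets, and those called lower 30% and 40%. The members' median log2 change was 0.28, beside -0.08 over all probe sets. By gene, 37 of 64 were higher, 18 lower and 9 not called. No array of the 9-hour group shared a scan day with the 16-cell arrays, so stage and day cannot be told apart for these tests. Control ratios moved with stage too. For the actin control, the intensity of the middle probe set over that of the 5' one was 4.16 ± 0.0502 at the 16-cell stage (SD, n = 2), 15.1 at 50% epiboly and 9.92 ± 1.11 at 9 hours (SD, n = 3), and the ratio of the 3' to the 5' GAPDH probe set was 0.371 ± 0.082, 0.225 and 0.162 ± 0.0156. The middle over the 5' GAPDH probe set gave 0.453 ± 0.0128, 0.716 and 0.797 ± 0.0999. The actin ratio was thus higher and the 3' to 5' GAPDH ratio lower at 9 hours than at the 16-cell stage. What these ratios reflect here, and their part in the stage results, was not tested. Arrays that share a hybridisation date in the file headers are called a hybridisation run here. The single 50% epiboly array shared its scan day and hybridisation run with the 16-cell arrays. On it, with no test, 30 of 80 members were at least 1.5-fold higher and 16 at least 1.5-fold lower than at the 16-cell stage, beside 25.5% and 29.5% of all probe sets. Between 50% epiboly and 9 hours only 6 members were at least 1.5-fold higher at 9 hours and 5 at least 1.5-fold lower, beside 6.09% and 7.77% of all probe sets.

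**Figure D1:**
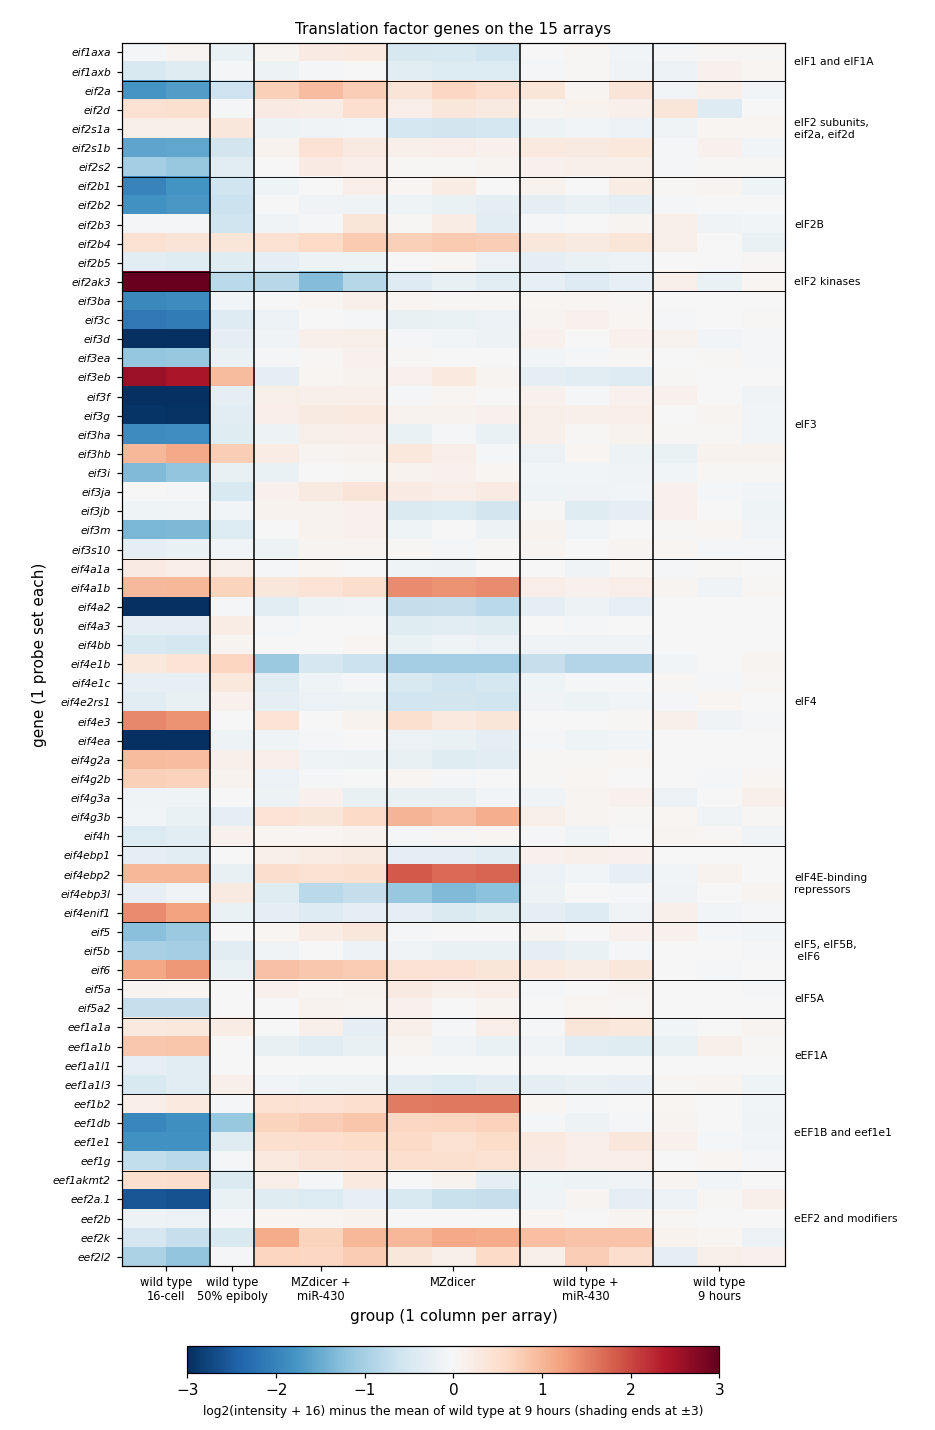
Log2(intensity + 16) of each of the 64 genes on the 15 arrays (columns, grouped), as the difference from the mean of wild type at 9 hours; rows are ordered by role, and red is higher and blue lower than that mean, with shading that ends at ±3. The 2 columns of the 16-cell stage differ most from the rest, with deep blue rows for eif4a2, eif3f, eif3d and eif4ea and a deep red row for eif2ak3.

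The eIF3 complex bridges the small ribosomal subunit and the mRNA. Of its 14 measured genes, 10 were higher at 9 hours, 2 lower and 2 not called, with a median log2 change of 1.31. Of all probe sets 75.7% were called, 35.6% higher and 40% lower. The level of eif3f was 227.6 and 241 on the 16-cell arrays, 2727 at 50% epiboly and 3640, 3296 and 3065 at 9 hours. The 16-cell arrays were far below all later ones and did not overlap with them. Its log2 change was 3.74 ± 0.07 (adjusted p = 1.42e-16, 13.4-fold). For eif3d, whose product contacts the cap of some mRNAs in human cells, the level was 314.5 and 319.3 at the 16-cell stage, 3198 at 50% epiboly and 4182, 3669 and 3756 at 9 hours, a log2 change of 3.54 ± 0.08 (adjusted p = 8.05e-16). The subunit genes eif3g (2.96), eif3c (2.12), eif3ba (1.90), eif3ha (1.87), eif3m (1.36), eif3i (1.26) and eif3ea (1.14) also rose by these log2 changes. The gene listed under the older symbol eif3s10, which encodes the largest subunit, rose by only 0.25 ± 0.07. The loosely attached subunit has 2 genes, eif3ja and eif3jb, with log2 changes of 0.02 and 0.13 that were not called.

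For the e and h subunits of eIF3, the array measures 2 genes each, and these were called in opposite directions. The level of eif3ea was 1620 and 1649 at the 16-cell stage, 3176 at 50% epiboly and 3678, 3733 and 3460 at 9 hours. Its partner eif3eb had 473.4 and 430 at the 16-cell stage, 142.1 at 50% epiboly and 67, 64.5 and 65 at 9 hours. The first gene was higher on every later array and the second lower, with no overlap in either. The log2 change of eif3eb was -2.52 ± 0.12 (adjusted p = 1.63e-11), the second largest fall among the members. Likewise eif3ha had 374.3 and 381.3 at the 16-cell stage, 1102 at 50% epiboly and 1456, 1459 and 1352 at 9 hours. The dim eif3hb had 68.8 and 78 at the 16-cell stage, 55.8 at 50% epiboly and 21, 29.9 and 29.9 at 9 hours, a log2 change of -1.06 ± 0.15 (adjusted p = 6.04e-06). Its 9-hour arrays all lay below the 16-cell arrays.

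**Figure D2:**
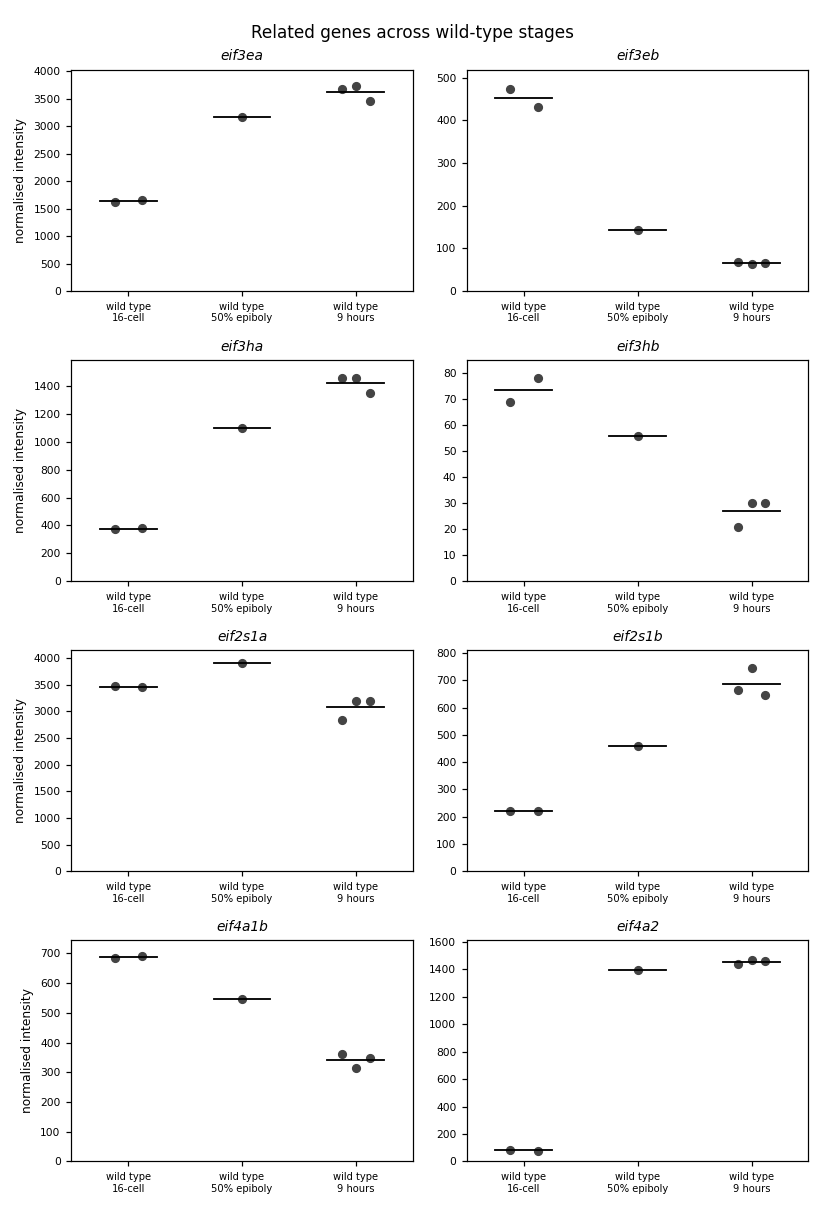
Normalised intensity (linear axis from 0) of 8 genes on wild-type arrays at the 16-cell stage, 50% epiboly and 9 hours; dots are arrays and bars group means. Within the eif3e and eif3h pairs and between eif4a1b and eif4a2, 1 gene climbs and the other drops after the 16-cell stage, while eif2s1b is higher at 9 hours (mean 686.1) than at the 16-cell stage (mean 220.0) and eif2s1a moves little.

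Of the eIF1A genes, eif1axb was called higher at 9 hours (0.41 ± 0.08), though not after median centring (0.13, adjusted p = 0.176), and eif1axa was not called (-0.03 ± 0.08). The other probe sets of eif1axb rose more after quantile scaling, by 1.51 ± 0.09 and 1.56 ± 0.15, both called. Their changes under the other scalings are not given here. Among the factors that carry the initiator tRNA, 3 of 5 genes were higher at 9 hours and 2 lower. The alpha subunit of eIF2, whose phosphorylation slows initiation in stressed cells, is encoded by eif2s1a and eif2s1b. The level of eif2s1b was 219.6 and 220.4 at the 16-cell stage, 459.2 at 50% epiboly and 664.4, 746.6 and 647.3 at 9 hours, a log2 change of 1.57 ± 0.09. For eif2s1a it was 3470 and 3460, 3904, and 2844.5, 3198 and 3194, so its 9-hour arrays lay below both 16-cell arrays and 50% epiboly above. Its log2 change of -0.17 ± 0.05 (adjusted p = 7.62e-03) was -0.09 with the intensities as deposited, where it was not called (adjusted p = 0.16). The beta subunit gene eif2s2 (1.08) and eif2a (1.72), an alternative carrier of the initiator tRNA, were higher. The gene eif2d, a further alternative factor, was lower (-0.47 ± 0.16, adjusted p = 0.0134), a call that was lost without 16-cell replicate 1 (adjusted p = 0.0622), without 16-cell replicate 2 (0.0662) and without wild-type replicate 2 (0.0589).

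The exchange factor eIF2B reloads eIF2 with GTP, and its 5 genes split. The genes eif2b1 (log2 change 1.90 ± 0.12) and eif2b2 (1.78 ± 0.07) were higher at 9 hours and eif2b4 was lower (-0.43 ± 0.11). The gene eif2b5 was called higher (0.35 ± 0.08) but had a change of -0.04 after median centring (adjusted p = 0.658), and eif2b3 was not called (0.03 ± 0.16). The only eIF2 kinase among the members, eif2ak3, encodes the sensor of the endoplasmic reticulum known as PERK and gave the largest fall of all 64 genes. Its level was 1564 and 1627 at the 16-cell stage, 72.3 at 50% epiboly and 156.3, 117.6 and 143.5 at 9 hours. The 16-cell arrays stood far above all later ones, with a log2 change of -3.38 ± 0.14 (adjusted p = 2.04e-12, 10.4-fold lower). The other probe sets of eif2ak3, which are dimmer, gave -1.03 and -0.98, both called.

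The eIF4 genes that recruit mRNA went both ways, and both the helicase and the cap-binding genes held rises and falls. Of 15 genes, 7 were higher at 9 hours, 6 lower and 2 not called, with a median log2 change of 0.15. The shares over all probe sets were 35.6% higher and 40% lower. The helicase gene eif4a2 had the largest rise of all members. Its level was 87.1 and 75.9 at the 16-cell stage, 1397 at 50% epiboly and 1436, 1466 and 1456.5 at 9 hours, so nearly all of the increase was already present at 50% epiboly. The log2 change was 3.92 ± 0.07 (adjusted p = 1.25e-16, 15.1-fold). The related eif4a1b had 683.4 and 690.8 at the 16-cell stage, 545.4 at 50% epiboly and 360.4, 314.5 and 347 at 9 hours, and fell by 0.98 on the log2 scale (adjusted p = 7.36e-09). The level of eif4a3, the helicase of the exon junction complex, was 4099 and 4040, then 5843, then 5032, 4908 and 4971, a rise of 0.29 ± 0.03. For eif4a1a the level was 7467 and 7237 at the 16-cell stage, 7179 at 50% epiboly and 6215, 6482 and 6294 at 9 hours. Its fall of 0.22 turned to a rise of 0.15 with intensities as deposited (adjusted p = 0.0172) and to 0.02 after median centring (adjusted p = 0.766). A second probe set of eif4a1a gave 1.96, called higher.

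The cap-binding eIF4E family has 5 genes here. The level of eif4ea was 185.9 and 196 at the 16-cell stage, 1517 at 50% epiboly and 1686, 1693 and 1718 at 9 hours, a rise of 3.05 ± 0.06. The level of eif4e3 was 1158 and 1072, then 419, then 461.6, 382.2 and 398.7, a fall with a log2 change of -1.40 ± 0.11 (adjusted p = 5.65e-09). Neither gene overlapped between the 16-cell and later arrays. The germ-line form eif4e1b, known from zebrafish and frog ovaries, had 454.6 and 485.6 at the 16-cell stage, 572.1 at 50% epiboly and 342.9, 358.3 and 382.6 at 9 hours, with a log2 change of -0.37 ± 0.14. This call was lost without 16-cell replicate 1 (-0.41, adjusted p = 0.0557), without 16-cell replicate 2 (-0.32, adjusted p = 0.13) and without wild-type replicate 1 (-0.33, adjusted p = 0.0629). The level of eif4e1c was 1235 and 1229 at the 16-cell stage, 1837 at 50% epiboly and 1486, 1403 and 1499 at 9 hours. The level of eif4e2rs1 was 931 and 996.5, then 1281, then 1113, 1206 and 1166. Both were called higher (0.24 and 0.27), but after median centring their changes were -0.12 (adjusted p = 0.178) and -0.15 (adjusted p = 0.0239). For these probe sets no direction held across scalings. A second probe set of eif4e1c gave 0.56 ± 0.06 after quantile scaling, called higher (adjusted p = 3.94e-07). Its change under the other scalings is not given here.

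Among the other mRNA-recruiting factors, eif4bb (0.49 ± 0.04) and eif4h (0.36 ± 0.06), which stimulate the helicase, were higher at 9 hours. The scaffold genes eif4g2a (-0.94 ± 0.08) and eif4g2b (-0.71 ± 0.05), whose mammalian counterpart lacks the eIF4E-binding site, were lower, whereas eif4g3a (0.12) and eif4g3b (0.15) were not called. Second probe sets gave 2.33 for eif4g2a and -1.86 for eif4g3a, both called. Of the 4 genes for repressors that bind eIF4E, eif4ebp2 fell by 1.00 on the log2 scale at 9 hours, and eif4enif1, which encodes the transporter 4E-T, by 1.31. The level of eif4ebp3l was not called (0.17 ± 0.10). That of eif4ebp1 was called higher (0.32 ± 0.05), with -0.01 after median centring (adjusted p = 0.856).

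Late in initiation, eif5, whose product triggers GTP hydrolysis on eIF2, rose by 1.17 ± 0.08, and eif5b, which joins the ribosomal subunits, by 1.00 ± 0.07. The gene eif6, whose product keeps the large subunit from joining too early, fell by 1.24 on the log2 scale (adjusted p = 1.27e-11). Its level was 2708 and 3000 at the 16-cell stage, 1048 at 50% epiboly and 1221, 1174 and 1210 at 9 hours. The eIF5A genes encode the hypusine-bearing factor that helps ribosomes past difficult sequences, and eif5a2 rose (0.70 ± 0.04) while eif5a was not called (-0.06 ± 0.04). Second probe sets of eif5b (-0.46), eif5a2 (-0.62) and eif5a (3.07) differed from these and were called.

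Among the elongation factor genes, eef2a.1 changed most. This second eEF2 gene had 166.7 and 159.1 at the 16-cell stage, 921.4 at 50% epiboly and 931, 1089 and 1178 at 9 hours, a log2 change of 2.59 ± 0.11. The bright eef2b rose by 0.17 ± 0.03, eef2l2 by 1.07 ± 0.16, and eef2k, whose kinase inhibits eEF2, by 0.59 ± 0.13. The dimmer probe sets of eef2l2 gave 0.42, called higher, and -0.19, not called. The methyltransferase gene eef1akmt2 fell by 0.50 on the log2 scale, but by 0.23, and without a call, with intensities as deposited (adjusted p = 0.125). For the exchange complex eEF1B, eef1db (1.89 ± 0.08) and eef1g (0.77 ± 0.05) were higher, and eef1b2 was slightly lower (-0.24 ± 0.05). The gene eef1e1, named with this family although its mammalian product belongs to the complex of aminoacyl-tRNA synthetases, was higher (1.81 ± 0.07).

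Of the eEF1A genes, eef1a1l1 was among the brightest probe sets of the array, ranked 2 on 13 arrays and 10 at worst. Quantile scaling therefore gave it 14657 on every array outside the 16-cell stage, and its changes between the 9-hour and injected groups are 0 by construction. The deposited intensities of eef1a1l1 were 11905 and 11547 at the 16-cell stage, 15458 at 50% epiboly and 14132, 15308 and 15131 at 9 hours. On these values its log2 change was 0.34 ± 0.05 (adjusted p = 8.92e-06), beside 0.29 ± 0.03 after scaling. Among the other eEF1A genes, eef1a1l3 had 138.9 and 152.2 at the 16-cell stage, 222.4 at 50% epiboly and 203.3, 210 and 180.3 at 9 hours (0.40 ± 0.09). The dim eef1a1b had 116.5 and 118.4, then 59.2, then 50.1, 68.1 and 61.8 (-0.82 ± 0.13). The level of eef1a1a was 62.1 and 64.3, then 58.3, then 44.4, 48.4 and 52.1, and was not called (-0.30 ± 0.15). So 2 eEF1A genes rose, 1 fell and 1 was not called.

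**Figure D3:**
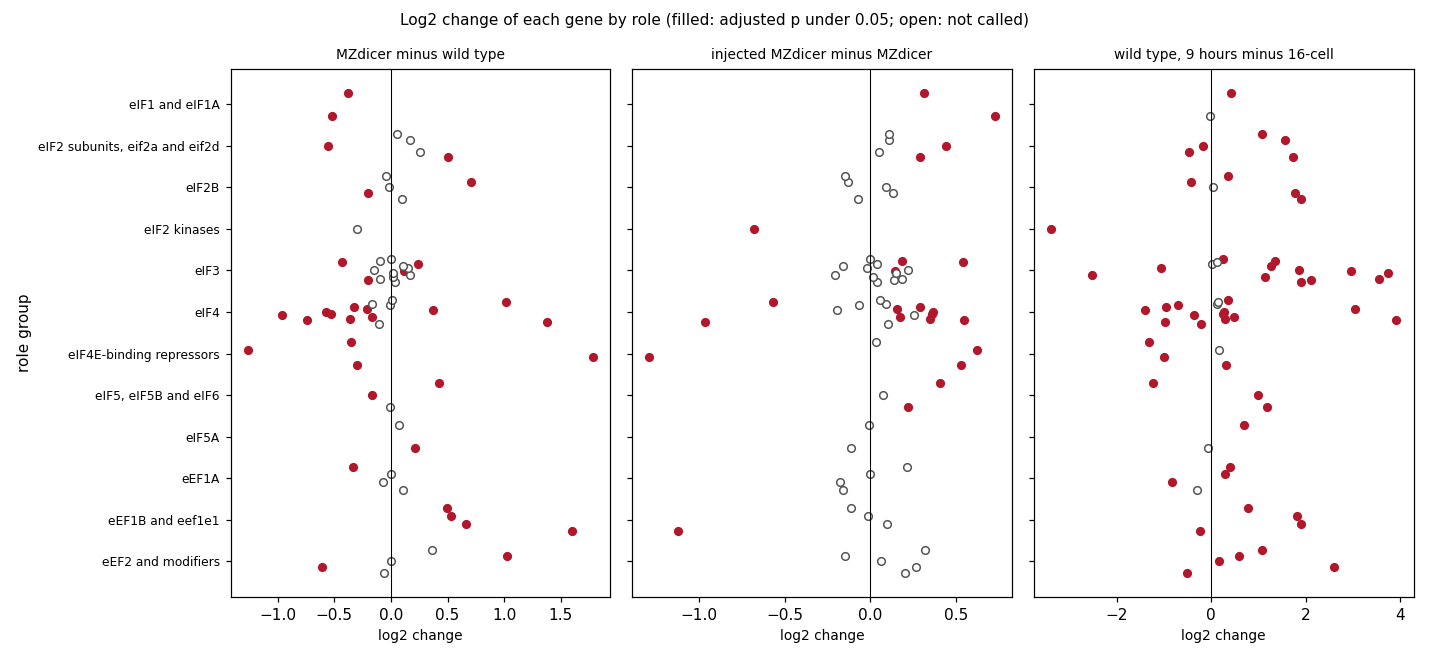
Log2 change of each gene by role group for MZdicer minus wild type (left), injected MZdicer minus MZdicer (middle) and wild type at 9 hours minus 16-cell stage (right); each dot is 1 gene, filled where the adjusted p was under 0.05 and open where it was not. The eIF3 genes spread from -2.52 to 3.74 by stage but stay between -0.43 and 0.23 in MZdicer minus wild type, where all 4 genes of the row for eEF1B and eef1e1 lie above 0.

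Between MZdicer and wild type, eIF3 was nearly level, while cap-binding and elongation exchange factor genes differed. In MZdicer against wild type at 9 hours, 20 of 80 probe sets were called higher and 24 lower, or 55% together, beside 47.4% of all probe sets. Higher calls made 25% of the members and 22.2% of all probe sets, and lower calls 30% and 25.2%. The members' median log2 change was -0.01, beside -0.07 over all. By gene, 15 were higher, 20 lower and 29 not called. The split of calls depended on scaling: 45.5% of the called members were higher after quantile scaling, 56.8% with intensities as deposited and 30.2% after median centring. Over all probe sets, 3444 of the 7344 called were higher after quantile scaling. No such share is given here for the other scalings, so the shift is not read as particular to the members. Uninjected wild-type arrays came from 2 hybridisation runs that held no other group. In every comparison with them, group and hybridisation run therefore cannot be told apart. Within the scan day that held all 3 MZdicer and 2 of the wild-type arrays, 43 members were called. In a fit that took hybridisation runs as random blocks, 42 were called. The actin ratio was 12.4 ± 0.331 in injected MZdicer, 18.2 ± 2.58 in MZdicer, 9.55 ± 0.756 in injected wild type and 9.92 ± 1.11 in wild type (SD, n = 3 each). In the same order, the ratio of the 3' to the 5' GAPDH probe set was 0.149 ± 0.0165, 0.196 ± 0.0127, 0.204 ± 0.0208 and 0.162 ± 0.0156. The part of these ratios in the genotype results was not tested.

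The genes higher in MZdicer were led by eif4ebp2, a repressor that binds eIF4E. Its level was 1016, 956.7 and 983.9 in injected MZdicer, 2536, 2281 and 2368 in MZdicer, 620.4, 662.2 and 582.1 in injected wild type and 652.9, 745.5 and 695.7 in wild type. The MZdicer arrays were highest and the injected MZdicer arrays next, with no overlap between these groups or with either wild-type group. The log2 change of MZdicer against wild type was 1.78 ± 0.07 (adjusted p = 8.73e-10, 3.44-fold). For eef1b2, which encodes the GTP-exchange subunit of eEF1B, the level was 4594, 4526 and 4756 in injected MZdicer, 9897, 10026 and 10026 in MZdicer, 3504, 3182 and 3362 in injected wild type and 3494, 3356 and 3172 in wild type. Again MZdicer stood apart and injected MZdicer lay between, with a log2 change of 1.60 ± 0.05 (adjusted p = 9.64e-11). The helicase gene eif4a1b had 434.2, 457 and 499.2 in injected MZdicer, 941.4, 888.3 and 941.4 in MZdicer, 391.7, 372 and 391.6 in injected wild type and 360.4, 314.5 and 347 in wild type. Its log2 change was 1.38 ± 0.07 (adjusted p = 1.03e-08), and the MZdicer arrays again stood far above the other 3 groups. Further genes higher in MZdicer were eef2k (1.03 ± 0.11), the scaffold gene eif4g3b (1.02 ± 0.07) and eif2b4 (0.70 ± 0.10).

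Among the genes lower in MZdicer, eif4ebp3l, a second 4E-binding protein gene, fell most. Its level was 2657, 1945 and 2078 in injected MZdicer, 1554, 1355 and 1435 in MZdicer, 3050.5, 3412 and 3266 in injected wild type and 3172, 3435 and 3640 in wild type. Every MZdicer array lay below every array of the other groups, with a log2 change of -1.26 ± 0.10 against wild type (adjusted p = 4.32e-07). The germ-line cap-binding gene eif4e1b had 157.4, 248.2 and 225.9 in injected MZdicer, 170.9, 167.4 and 167.5 in MZdicer, 218.8, 189 and 189.1 in injected wild type and 342.9, 358.3 and 382.6 in wild type. Only the uninjected wild-type arrays were high, and the other 3 groups lay close together, with a log2 change of -0.96 ± 0.12 for MZdicer (adjusted p = 2.62e-05). For eif4a2 the level was 1157, 1310 and 1339 in injected MZdicer, 879, 892.4 and 827.1 in MZdicer, 1212, 1303 and 1214 in injected wild type and 1436, 1466 and 1456.5 in wild type. The MZdicer arrays were the lowest and the uninjected wild-type arrays the highest, with a log2 change of -0.74 ± 0.06 (adjusted p = 5.23e-07). Falls of 0.5 or more were also called for eef2a.1 (-0.61), eif4e2rs1 (-0.58), eif2s1a (-0.55), eif4e1c (-0.53) and eif1axa (-0.52).

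**Figure D4:**
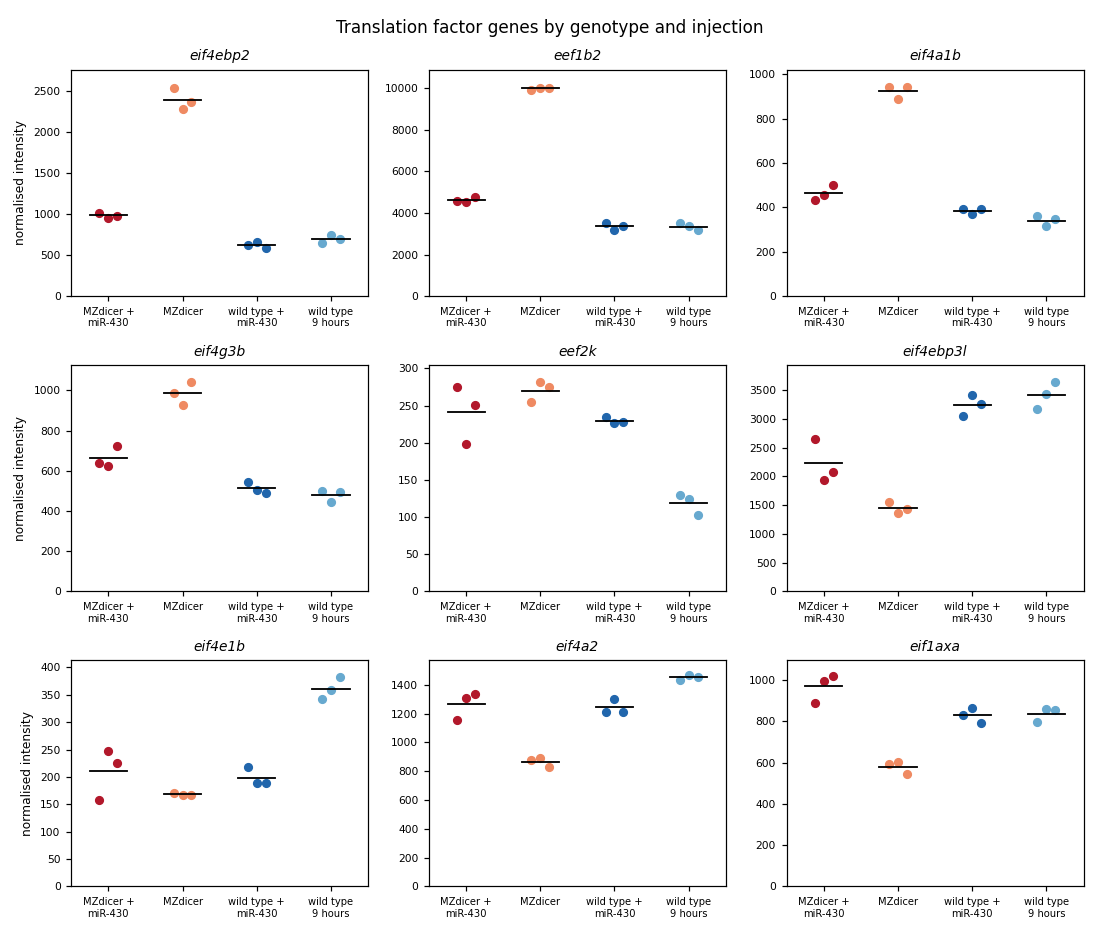
Normalised intensity (linear axis from 0) of 9 genes in injected MZdicer, MZdicer, injected wild type and wild type; dots are the 3 arrays of each group and bars their means. In eif4ebp2, eef1b2, eif4a1b and eif4g3b the MZdicer dots are highest and the injected MZdicer dots lie between them and wild type, in eif4ebp3l, eif4a2 and eif1axa the MZdicer dots are lowest, and in eef2k and eif4e1b uninjected wild type stands apart from the other 3 groups.

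By role, both eIF1A genes, which act in scanning, were lower in MZdicer: eif1axa by -0.52 ± 0.07 and eif1axb by -0.38 ± 0.08. Other probe sets of eif1axb gave the opposite call, as described below. Of the initiator tRNA factors eif2a was higher (0.50 ± 0.10) and eif2s1a lower, and of eIF2B eif2b4 was higher and eif2b2 lower (-0.20 ± 0.06). The call of eif2b2 was lost without MZdicer replicate 3 (-0.15, adjusted p = 0.101), without wild-type replicate 2 (-0.19, adjusted p = 0.0606) and without wild-type replicate 3 (-0.19, adjusted p = 0.06), and with intensities as deposited the change was only -0.03 (adjusted p = 0.796). In eIF3 only 4 of 14 genes were called, beside 47.4% of all probe sets. Of these eif3c (-0.20) and eif3jb (-0.43) were lower and eif3ja (0.23) and eif3g (0.12) higher. The call of eif3g (adjusted p = 0.0476) was lost without any single 1 of 10 arrays (adjusted p 0.0549 to 0.198), and its change was -0.07 after median centring (adjusted p = 0.239). That of eif3ja was lost without wild-type replicate 3 (0.19, adjusted p = 0.0548) and after median centring (0.15, adjusted p = 0.1). That of eif3jb was lost with intensities as deposited (-0.25, adjusted p = 0.0863).

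Of the 15 eIF4 genes, 3 were higher and 8 lower in MZdicer, with a median log2 change of -0.17. Of all probe sets 22.2% were called higher and 25.2% lower. Besides those above, eif4e3 was higher (0.37), and eif4a3 (-0.36), eif4g2a (-0.32), eif4ea (-0.21) and eif4bb (-0.16) were lower. Second probe sets gave 0.19 for eif4e3 and 0.25 for eif4g2a, neither called. All 4 genes for eIF4E-binding repressors were called, eif4ebp2 higher and eif4ebp1 (-0.30 ± 0.04), eif4ebp3l and eif4enif1 (-0.36 ± 0.08) lower. The eif4enif1 call was not made with intensities as deposited (-0.18, adjusted p = 0.194). The gene eif6 was higher (0.42 ± 0.05) and eif5b lower (-0.17 ± 0.06, adjusted p = 0.0387). The call of eif5b was lost without any 1 of 5 arrays (adjusted p 0.0647 to 0.112) and with intensities as deposited (-0.09, adjusted p = 0.324). Its second, dimmer probe set gave -0.46 ± 0.06 and was also called lower (adjusted p = 3.43e-05). The gene eif5a was higher (0.21 ± 0.04), with 0.01 after median centring (adjusted p = 0.93). In elongation, all 3 genes of the eEF1B complex were higher, eef1b2, eef1db (0.66 ± 0.06) and eef1g (0.50 ± 0.04), and so was eef1e1 (0.53 ± 0.06). Of the eEF1A genes only eef1a1l3 was called (-0.33 ± 0.08), and not with intensities as deposited (-0.18, adjusted p = 0.114). On the deposited intensities eef1a1l1 had 15427, 13983 and 14298 in MZdicer and 14132, 15308 and 15131 in wild type, groups that overlapped, with a log2 change of -0.03 ± 0.05 (adjusted p = 0.664).

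Fewer factor genes differed between injected and uninjected MZdicer embryos, and most of these were higher in the injected ones. All 6 arrays were scanned on the same day and shared a hybridisation run. The injected arrays were all on station 1 and the uninjected ones all on station 2, so injection and station cannot be told apart here. Of the 80 probe sets 22 were called higher and 7 lower in injected MZdicer against MZdicer, or 36.2% together, beside 24.6% of all probe sets. Higher calls made 27.5% of the members and 11.9% of all, and lower calls 8.75% and 12.7%. The median log2 change was 0.10, beside 0.03 over all. By gene, 18 were higher, 5 lower and 41 not called. Leaving out injected MZdicer replicate 1 gave 37 calls and leaving out MZdicer replicate 3 gave 22.

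The 5 genes that fell on injection were eif4ebp2, eef1b2, eif4a1b, eif2ak3 and eif4g3b. For eif4ebp2 the log2 change was -1.29 ± 0.07 (adjusted p = 2.85e-08), for eef1b2 -1.12 ± 0.05 (adjusted p = 4.38e-09) and for eif4a1b -0.97 ± 0.07 (adjusted p = 5.01e-07). Their arrays, given above, did not overlap between injected and uninjected MZdicer. The scaffold gene eif4g3b had 639.8, 624.8 and 722.8 in injected MZdicer and 985.3, 929.2 and 1044 in MZdicer, a log2 change of -0.57 ± 0.07. The kinase gene eif2ak3 had 70.5, 46.7 and 69.7 in injected MZdicer, 102.6, 115.5 and 108.9 in MZdicer, 113.2, 102 and 114.9 in injected wild type and 156.3, 117.6 and 143.5 in wild type. The injected MZdicer arrays were the lowest of all, with a log2 change of -0.68 ± 0.13 against MZdicer (adjusted p = 1.81e-03). In injected MZdicer the mean of this eif2ak3 probe set was 62.3 and those of the others 60.4 and 38.9, all dim. The others gave 0.17 and 0.06, neither called. Comparisons of injected MZdicer and of wild type with MZdicer share the MZdicer arrays, so for a gene such as eef1b2 the MZdicer level enters both its rise of 1.60 and its fall of 1.12.

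The largest rise on injection was that of the scanning factor gene eif1axa. Its level was 889.9, 996.2 and 1021 in injected MZdicer, 593.8, 602.3 and 544.6 in MZdicer, 828.1, 863.1 and 792.9 in injected wild type and 796.9, 860.4 and 852.4 in wild type. Only the uninjected MZdicer arrays were low, and the log2 change on injection was 0.73 ± 0.07 (adjusted p = 4.45e-06). Rises were also called for eif4ebp3l (0.62 ± 0.10), eif4a2 (0.54 ± 0.06), eif3jb (0.54 ± 0.10), eif4ebp1 (0.53 ± 0.04, adjusted p = 1.06e-06), eif2s1a (0.44 ± 0.05), eif6 (0.41 ± 0.05) and eif4e2rs1 (0.36 ± 0.05). Of the eIF4 genes 7 rose and 2 fell, with eif4e1c (0.36), eif4a3 (0.35), eif4g2a (0.29), eif4bb (0.18) and eif4ea (0.15) among the rises. In eIF3 only eif3jb, eif3m (0.19) and eif3g (0.14) of 14 genes were called. The shares over all probe sets were 11.9% higher and 12.7% lower. By their brightest probe sets both eIF1A genes rose (eif1axb 0.31 ± 0.08), and so did eif2a (0.29 ± 0.10) and eif5 (0.22 ± 0.07). The other probe sets of eif1axb gave 0.13 and 0.10, neither called. None of the 5 eIF2B genes, the 2 eIF5A genes, the 4 eEF1A genes or the 5 genes of eEF2 and the modifying enzymes was called, and of the 3 eEF1B genes and eef1e1 only eef1b2. Of the eEF1A genes, eef1a1l1 could not be called after quantile scaling, which fixed its level. With intensities as deposited its log2 change was -0.02 ± 0.05 (adjusted p = 0.877). Second probe sets of eif5a (-0.74), eif5a2 (0.25) and eif5b (0.225) were called, and that of eif4g2a (0.14) was not. The smaller rises were the least stable. Leaving out 1 array in turn took the call from eif5 in 6 cases (highest adjusted p 0.153), from eif2a (0.157), eif3g (0.108), eif3m (0.147) and eif4ea (0.143) in 5 cases each, and from eif4g2a without MZdicer replicate 2 (0.0606) or replicate 3 (0.0543). With intensities as deposited eif2a, eif3g, eif4ea, eif4g2a and eif5 were not called (adjusted p 0.0543 to 0.176).

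In wild-type embryos, which make their own miR-430, 13 of 80 probe sets were called between injected and uninjected embryos, 10 higher and 3 lower, or 16.2%, beside 14.1% of all probe sets. The injected arrays shared no hybridisation run with the uninjected ones, so injection and run cannot be told apart here. With runs as random blocks 10 members were called. Higher calls made 12.5% of the members and 7.34% of all, and lower calls 3.75% and 6.81%. The median log2 change was 0.01, beside -0.01 over all. The share of higher calls among the called members was 76.9%, 60% with intensities as deposited and 25% after median centring. Over all probe sets, 1138 of the 2193 called were higher after quantile scaling, and no such share is given here for the other scalings. The count was unstable: it was 7 without injected wild-type replicate 1, 6 without injected wild-type replicate 3, 8 without wild-type replicate 2, 5 without wild-type replicate 3 and 19 without injected MZdicer replicate 1. At an unadjusted p under 0.05 there were 27. By gene, 8 were higher, 3 lower and 53 not called. Dimmer probe sets of eif1axb (0.33) and eif4g3a (0.32) were also called higher, while the brightest of each gene was not called.

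The largest rise in injected wild type was that of eef2k, the kinase that inhibits eEF2. Its level was 275.2, 198.8 and 250.7 in injected MZdicer, 254.3, 281.3 and 274.8 in MZdicer, 233.9, 226.8 and 227.8 in injected wild type and 129.9, 124.4 and 103.2 in wild type. Uninjected wild type, the group with hybridisation runs of its own, alone was low. The log2 change of injected against uninjected wild type was 0.82 ± 0.11 (adjusted p = 2.73e-04). The largest fall was that of eif4e1b, whose arrays, given above, were also apart only in uninjected wild type (-0.76 ± 0.12, adjusted p = 1.12e-03). Next in the rises, eef2l2 had 741.9, 1097 and 941.4 in injected wild type and 529.1, 733.5 and 714.3 in wild type, with each injected array above every uninjected one. Its log2 change of 0.48 ± 0.15 (adjusted p = 0.0466) lost its call without any 1 of 7 arrays (adjusted p 0.056 to 0.178) and with runs as random blocks (0.0614). The dimmer probe sets of eef2l2 gave 0.02 and 0.08, neither called. The level of eif2s1b was 846.7, 826.3 and 854.6 in injected wild type and 664.4, 746.6 and 647.3 in wild type (0.30 ± 0.08), and its call was lost without any 1 of 5 arrays (adjusted p 0.0579 to 0.111).

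Of the smaller calls in injected wild type, eif6 (0.29 ± 0.05, adjusted p = 1.94e-03) and eef1g (0.23 ± 0.04, adjusted p = 2.53e-03) stayed called without any 1 array, although eef1g was not called after median centring (0.13, adjusted p = 0.0729). The level of eif2b2 was 531.6, 571.9 and 534.3 in injected wild type and 643.1, 667.5 and 662.8 in wild type (-0.26 ± 0.06), with no overlap. That of eif4a2 was also lower, with no overlap (-0.23 ± 0.06). The calls of eif2b2 (adjusted p 0.0532 to 0.067) and eif4a2 (0.0685 to 0.0915) were each lost without injected wild-type replicate 1 or 3 or wild-type replicate 2 or 3. Rises of eef1e1 (0.28), eif3g (0.18) and eif4ebp1 (0.14) were called. The first and second of these were lost without injected wild-type replicate 3 (adjusted p = 0.0504 and 0.0667) or wild-type replicate 3 (0.0598 and 0.0796), and eif4ebp1 without any 1 of 8 arrays (highest adjusted p 0.116). With intensities as deposited eif2b2, eef1e1, eif3g and eif4ebp1 were not called (adjusted p 0.0575 to 0.318), nor were eef1e1, eif3g and eif4ebp1 after median centring (highest adjusted p 0.599). On the deposited intensities eef1a1l1 had 14050, 15371 and 14432 in injected wild type, with a log2 change of -0.02 ± 0.05 against wild type (adjusted p = 0.822).

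The effect of injection was compared between the genotypes as the interaction, the change in MZdicer minus the change in wild type. It was called for 28 of 80 probe sets, 18 positive and 10 negative, or 35%, beside 22.7% of all probe sets. The median was 0.09, beside 0.04 over all. In eIF4, 7 of 15 genes had a positive interaction and 2 a negative one. The most negative values included eif4a1b (-1.13 ± 0.10), eif4ebp2 (-1.13 ± 0.09), eef1b2 (-1.12 ± 0.06) and eif4g3b (-0.66 ± 0.10). In wild type their changes on injection were 0.16, -0.16, 0.00 and 0.09, none of them called. The negative value of eef2k (-0.97 ± 0.15) came with a called rise in wild type (0.82) and a change of -0.15 in MZdicer that was not called (adjusted p = 0.359). The largest positive value, of eif4e1b (1.02 ± 0.17, adjusted p = 9.56e-04), likewise came with a called fall in wild type (-0.76) and 0.25 in MZdicer, which was not called (adjusted p = 0.163). For eif4a2 (0.77 ± 0.09), eif1axa (0.74 ± 0.10) and eif3jb (0.73 ± 0.14) the change on injection was 0.54, 0.73 and 0.54 in MZdicer, all called, and -0.23 (called), -0.01 and -0.19 in wild type.

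Smaller interaction values were called for eif2b4 (-0.44, lost without any 1 of 10 arrays, adjusted p 0.0592 to 0.101), eef1e1 (-0.29, 7 arrays, 0.0592 to 0.0902), eif1axb (0.35, 8 arrays, 0.0529 to 0.0745) and eif4ea (0.25, 4 arrays, 0.0516 to 0.0651). Those of eif2s1a (0.58 ± 0.07), eif4a3 (0.36 ± 0.04), eif4e2rs1 (0.48 ± 0.07), eif4ebp1 (0.39 ± 0.06), eif4ebp3l (0.70 ± 0.14), eif2b2 (0.39 ± 0.09), eef1a1l3 (0.45 ± 0.11) and eef1g (-0.34 ± 0.06) stayed called without any 1 array, but with intensities as deposited eif2b2 (adjusted p = 0.0534) and eef1a1l3 (0.0581) were not called, nor were eif4ea (0.0515) and eef1e1 (0.105). For eif1axb the other probe sets gave interaction values of -0.19 and 0.17, neither called. The second probe set of eif5b gave 0.37, called (adjusted p = 7.02e-03), and its brightest 0.25, not called. The interaction was computed on the same 12 arrays as the comparisons above and includes the uninjected wild-type arrays with their own hybridisation runs.

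Injected MZdicer embryos were also set against uninjected wild type, to see which differences were present in injected mutants. Here 24 of 80 probe sets were called higher and 8 lower, or 40%, beside 31.3% of all probe sets. Higher calls made 30% of the members and 16.3% of all, and lower calls 10% and 15%. The median log2 change was 0.07, beside -0.03 over all. By gene, 19 were higher, 7 lower and 38 not called. The share of higher calls among the called members was 75%, 85.2% with intensities as deposited and 53.8% after median centring. Over all probe sets, 2531 of the 4854 called were higher after quantile scaling, and no such share is given here for the other scalings. All 3 eEF1B genes were higher, with eef1db at 0.76 ± 0.06, eef1b2 at 0.48 ± 0.05 and eef1g at 0.39 ± 0.04, and eef1e1 was higher by 0.51 ± 0.06. The eIF4E-binding genes split, with eif4ebp2 (0.49 ± 0.07) and eif4ebp1 (0.23 ± 0.04) higher and eif4ebp3l (-0.64 ± 0.10) and eif4enif1 (-0.32 ± 0.08) lower. The eif4enif1 call was not made with intensities as deposited (-0.21, adjusted p = 0.176). The scaffold gene eif4g3b (0.45 ± 0.07) and the helicase gene eif4a1b (0.41 ± 0.07) were higher, as were eif3ja (0.27 ± 0.07) and eif3g (0.26 ± 0.04), the last of which was not called after median centring (0.12, adjusted p = 0.0669).

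The gene eif6 had 2230, 2103 and 2037 in injected MZdicer, 1639.5, 1635 and 1552 in MZdicer, 1471, 1412 and 1517 in injected wild type and 1221, 1174 and 1210 in wild type. The 4 groups did not overlap, and injected MZdicer was the highest, at 0.83 ± 0.05 above wild type (adjusted p = 2.43e-07). The alternative initiation factor gene eif2a had 1096, 1275 and 1119 in injected MZdicer, 877.5, 1024 and 946.5 in MZdicer, 857.5, 700.1 and 866.8 in injected wild type and 629.4, 738.7 and 630.8 in wild type. Injected MZdicer lay above all other arrays, at 0.80 ± 0.10 over wild type (adjusted p = 5.21e-05). For both genes the change on injection of MZdicer was in the same direction as the difference between MZdicer and wild type. The genes eef2k (0.88 ± 0.11), eef2l2 (0.68 ± 0.15) and eif2b4 (0.57 ± 0.10) were higher too, and eif2ak3 (-0.98 ± 0.13) and eif4e1b (-0.71 ± 0.12) lower. The dimmer probe sets of eef2l2 (0.06 and -0.17) and of eif2ak3 (-0.29 and 0.04) were not called. Some genes were called only by dimmer probe sets. These were higher for eif1axb (0.64 and 0.50), eif5a (0.66), eif5a2 (0.56) and eif4g2a (0.39), and lower for eif5b (-0.23).

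Smaller differences between injected MZdicer and wild type were called for eef2a.1 (-0.34, lost without any 1 of 4 arrays, highest adjusted p 0.113) and eif4e2rs1 (-0.21). They were also called for eif4a2 (-0.20), which was lost without injected MZdicer replicate 1 (adjusted p = 0.0648), wild-type replicate 2 (0.0649) or wild-type replicate 3 (0.0661). The rises of eif1axa (0.21, 4 arrays, highest adjusted p 0.119), eif2s1b (0.28, 2 arrays, 0.0804), eif5 (0.21, 8 arrays, 0.17) and eif2s2 (0.16, 11 arrays, 0.145) were lost without any 1 of the number of arrays given. A second probe set of eif1axa gave 0.09, not called. With intensities as deposited eef2a.1, eif4e2rs1, eif4a2, eif5 and eif2s2 were not called (adjusted p 0.0688 to 0.176, a range that includes eif4enif1), and after median centring eif5 (0.491) and eif2s2 (0.736) were not. On the deposited intensities eef1a1l1 had 14626, 13797 and 14797 in injected MZdicer, with a log2 change of -0.04 ± 0.05 against wild type (adjusted p = 0.532).

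For 12 genes the array carries several probe sets, and these did not always give the same result. The calls were the same for all probe sets of a gene in 6 of 12 genes for MZdicer against wild type, in 5 for injected against uninjected MZdicer, in 9 for injected against uninjected wild type, in 4 for injected MZdicer against wild type, in 8 for the interaction and in 5 by stage. Opposite calls occurred for eif1axb in MZdicer, and by stage for eif4a1a, eif4g2a, eif5b and eif5a2. The brightest probe set of eif1axb gave -0.38 in MZdicer against wild type, and the others 0.51 and 0.40. The second probe set of eif4g2a gave 2.33 by stage, against -0.94 for the first, and that of eif4a1a 1.96 against -0.22. For eif5b the values were -0.46 and 1.00 and for eif5a2 -0.62 and 0.70. The deposited table does not say which transcript ends or related genes each probe set reads, and this was not tested.

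The second probe set of eif5a changed far more than the first in every comparison but injected against uninjected wild type. Its level was 1533, 1877 and 1814 in injected MZdicer, 2760, 2959 and 2876 in MZdicer, 1030.5, 1069.5 and 1115.5 in injected wild type and 1188, 1051 and 1068 in wild type, with 119.6 and 115.2 at the 16-cell stage and 829.5 at 50% epiboly. The MZdicer arrays were the highest and injected MZdicer lay between them and wild type, with 1.40 ± 0.07 in MZdicer against wild type, -0.74 ± 0.07 on injection of MZdicer and 3.07 ± 0.08 by stage. The first probe set gave 0.21, -0.12 and -0.06 for the same comparisons. In injected MZdicer against wild type the second gave 0.66, called higher, and the first 0.10, not called. Their interaction values were -0.70, called, and -0.14, not called. A second probe set of eif4g3a changed more than the brightest in MZdicer against wild type, on injection of MZdicer and by stage. It had 0.77 ± 0.10 in MZdicer, -0.75 ± 0.10 on injection of MZdicer and -1.86 ± 0.10 by stage. The brightest probe set gave -0.17, 0.09 and 0.12. Their interaction values were -1.07, called, and 0.06, not called. In injected MZdicer against wild type neither was called (0.02 and -0.08). On injection of wild type the second probe set was called higher (0.32, adjusted p = 0.0409) and the brightest was not called (0.03).

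Genes of translation outside the initiation and elongation factors were counted from lists. Of all probe sets, 75.7% were called by stage (35.6% higher, 40% lower) and 47.4% in MZdicer against wild type (22.2% and 25.2%). On injection of MZdicer 24.6% were called (11.9% and 12.7%). No list was tested against these shares. Of 8 poly(A)-binding proteins and regulators, 2 were higher and 5 lower at 9 hours than at the 16-cell stage. The germ-line poly(A)-binding genes pabpc1l (-4.87 ± 0.10) and pabpn1l (-4.52 ± 0.12) and the regulator paip1 (-2.64 ± 0.13) fell most. In MZdicer against wild type 2 were higher and 1 lower, paip1 at 0.66 ± 0.12, and on injection of MZdicer 1 was higher and 1 lower, paip1 at -0.64 ± 0.12. Of 7 termination and recycling genes, 1 was higher and 4 lower in MZdicer, and 5 were higher and 0 lower on injection of MZdicer, where 2 were not called. The recycling ATPase gene abce1 had -0.41 ± 0.04 and 0.29 ± 0.04 in these comparisons. By stage 4 were higher and 1 lower.

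A list of signalling and other regulators of translation had 13 measured genes. In MZdicer 8 were higher and 2 lower, beside 47.4% of all probe sets called. On injection of MZdicer 1 was higher and 4 lower, beside 24.6%, and by stage 4 were higher and 7 lower, beside 75.7%. The eIF4E kinase genes mknk1 (1.14 ± 0.12), mknk2b (0.84 ± 0.07) and mknk2a (0.30 ± 0.09) were higher in MZdicer, as was mtor (0.92 ± 0.14), and the S6 kinase gene rps6kb1b was lower (-0.52 ± 0.06). By stage mknk2a (-5.18 ± 0.10) and mknk1 (-4.55 ± 0.13) fell and mknk2b rose (0.62 ± 0.08). Of 19 aminoacyl-tRNA synthetase and associated genes, 12 were higher and 5 lower by stage, 4 higher and 6 lower in MZdicer, and 8 higher and 2 lower on injection of MZdicer. Of 6 mitochondrial translation factors, 2 were higher and 3 lower by stage, 0 higher and 1 lower in MZdicer, and 2 higher and 0 lower on injection of MZdicer. In injected wild type, where 14.1% of all probe sets were called, the poly(A)-binding list had 0 higher and 1 lower. The others had 0 and 1 for termination, 2 and 3 for signalling and other regulators, 3 and 0 for the synthetases and 0 of 6 called for the mitochondrial factors.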

How the data were processed

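RNA was labelled from 2 µg of total RNA with an oligo(dT) primer, per the labels' protocols. The deposited table holds linear intensities, 1 per probe set and array. The authors' probe summary, background correction and scaling are not given in the sources used here. Intensities were quantile normalised, values below 0 set to 0, and log2(intensity + 16) was computed from the deposited values. All 15502 non-control probe sets were fitted with limma 3.58.1 in R 4.3.3 (lmFit, contrasts.fit, then trended eBayes), leaving no probe set out for dimness, and p-values were adjusted by Benjamini-Hochberg over all of them. The 4 genotype and injection groups were fitted together (12 arrays, 8 residual degrees of freedom) and the stages in a fit of all 15 arrays (9 degrees of freedom). Printed levels were scaled over all 15 arrays, and member changes moved by at most 0.0646 between the 12-array and 15-array scaling. Precision is limited by how many arrays there are.

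All 80 members were tested, and none was below 0 on any array. All 80 matched RefSeq by Entrez identifier. Of the platform's probe sets, 135 carry several symbols, of which 2 include a factor and were not used. No sequences are printed. Members, role groups, lists and named genes (in each comparison the 8 largest called changes in each direction, 4 for the interaction, and every called gene of role groups of 6 or fewer genes) were chosen with earlier results of these data known. Array information files gave 3 scan days and, by the hybridisation date in their headers, 5 hybridisation runs, used only as batch labels. The fit was tested on simulated data. Alternatives were intensities as deposited, median centring, pseudocounts of 1 and 64, leaving out the dimmest 40%, no trend and only the arrays compared. Further alternatives were a replicate block, scan day as a block, hybridisation run as a random block, and leaving out each array in turn. For the stage comparison the hybridisation-run alternative was chosen after seeing the data.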

Additional observations from a re-analysis of the deposited data

Results flagged for a closer look

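The effect of injection differed between MZdicer and wild type for 23 of 64 genes, each taken by its brightest probe set, in the interaction test of limma over 15502 probe sets, of which 22.7% were called, and the 4 largest differences in each direction are given here. The difference, as the log2 change in MZdicer minus that in wild type, was 1.02 ± 0.17 for eif4e1b (adjusted p = 9.56e-04), 0.77 ± 0.09 for eif4a2 (3.93e-05), 0.74 ± 0.10 for eif1axa (1.22e-04) and 0.73 ± 0.14 for eif3jb (2.17e-03). It was -1.13 ± 0.10 for eif4a1b (6.46e-06), -1.13 ± 0.09 for eif4ebp2 (4.38e-06), -1.12 ± 0.06 for eef1b2 (2.79e-07) and -0.97 ± 0.15 for eef2k (5.10e-04). All 3 injected MZdicer arrays of eif4a1b, eif4ebp2 and eef1b2 lay below all 3 uninjected MZdicer arrays. For eif4e1b and eef2k, uninjected wild type was the group whose arrays stood apart from the other 3 groups. These arrays came from hybridisation runs that held no other group, so group and run cannot be told apart.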

How the results depend on the processing

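Counts of called members ranged, when 1 array was left out, from 39 to 49 for MZdicer against wild type, 22 to 37 for injected MZdicer against MZdicer, 5 to 19 for injected against uninjected wild type, 25 to 35 for injected MZdicer against wild type, 24 to 29 for the interaction and 65 to 69 by stage. Shares of all probe sets called in these fits are not given here, so the ranges are not read as particular to the members. Of the genes called, 27 of 35, 17 of 23, 3 of 11, 16 of 26, 17 of 23 and 45 of 55, in the same order, kept their call and direction in every alternative run. With the other pseudocounts, no trend, only the arrays compared or a block, calls were lost by 2, 6, 5, 8, 4 and 1 genes, in the same order, with adjusted p of at most 0.153. The members' median log2 change moved beyond the spread between arrays in these cases. For MZdicer against wild type (-0.0107) it was 0.0144 as deposited, -0.138 after median centring, 0.0192 when scan days were blocked and -0.0364 to 0.0195 without 1 array. After median centring it was -0.0757 for injected against uninjected wild type (0.00818), -0.0465 for injected MZdicer against wild type (0.0665), 0.177 for the interaction (0.0873) and 0.133 by stage (0.276), where it was 0.357 without the dimmest 40%. The median of all probe sets by stage was -0.0824, 0.149 with intensities as deposited and 0.0208 after median centring. Reversed changes were eif3g in MZdicer (-0.068 after median centring) and, by stage, eif4a1a (0.147 as deposited, 0.0187 after median centring), eif4e2rs1 (-0.0249, -0.153), and after median centring eif2b5 (-0.0416), eif4e1c (-0.117) and eif4ebp1 (-0.0105). The cause was not tested. Replicate numbers did not pair the samples: 26 correlations between arrays of the same number ran from -0.229 to 0.258, and 3 exceeded 0.1. With the replicate block 43, 24, 11, 31, 27 and 68 members were called in the same order of comparisons, against 44, 29, 13, 32, 28 and 68. No more than 3 arrays a group limits precision, and the dim eif3hb, eef1a1a and eef1a1b lie near the low end of the intensities, where log2(intensity + 16) understates changes. The level of eif2ak3 was low too outside the 16-cell stage, at 70.5, 46.7 and 69.7 in injected MZdicer.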
